A study of Mus musculus with 2 samples.

Results

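Rab proteins are small GTPases that act as switches on intracellular membranes. Loaded with GTP by an exchange factor, a Rab sits on particular membranes and recruits effectors that move, tether or mature them. A GTPase-activating protein then returns it to the GDP-bound form, which GDP dissociation inhibitors keep soluble. Different members mark different steps, from the endoplasmic reticulum and Golgi through early, recycling and late endosomes to lysosomes, lysosome-related organelles and secretory vesicles. Rab7 and Rab9 act on late endosomes, Rab3a on synaptic vesicles, and Rab32 and Rab38 on the delivery of cargo to lysosome-related organelles such as melanosomes.

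The Rab family was taken as every gene listed for both libraries whose symbol is Rab followed by 1 or 2 digits and at most 1 lower-case letter. The rule uses symbols only and no measured value, and it gave 51 of the 12744 genes present in both lists. A further 3 Rab genes were listed for 1 library only. The libraries came from single cells of mouse hippocampus dissected at 57 weeks, 1 from GlaKO animals and 1 from wt littermates. GlaKO mice lack alpha-galactosidase A, a lysosomal enzyme that removes terminal galactose from glycosphingolipids, and serve as a model of Fabry disease. Animals of both genotypes were anaesthetised with xylazine and ketamine and perfused with PBS, and dissociated cells were cleared of debris and sorted with the viability dye 7-AAD. The labels do not say how many animals went into a library. With 1 library per genotype no difference between genotypes can be tested, and every interval below covers counting error only.

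The wt library held 5443 barcodes and 31929688 unique molecular identifiers (UMIs), and the GlaKO library held 4572 barcodes and 29914106 UMIs, with 6 barcodes in common. Clustering without the Rab genes gave 7 classes with at least 100 cells in each library, named only by their markers and therefore "like" the cell types: choroid plexus epithelium, oligodendrocytes, oligodendrocyte precursors, astrocytes, microglia, neurons and T cells. The choroid plexus, whose epithelium makes cerebrospinal fluid, lies beside the hippocampus. Its cells were 48.2% of those kept in wt and 17.8% in GlaKO. Of 12 choroid plexus markers, 11 were listed and all 11 were present in this class, while Ttr was not among the genes compared. These cells were also deeper in GlaKO, at a median of 8602 UMIs against 5870. Levels are given as CPM, the UMIs of a gene per 1000000 UMIs of the class. Gla itself stood at 12.4 CPM (385 UMIs) in wt and 7.34 CPM (211 UMIs) in GlaKO over the 7 classes. This sum mixes classes whose shares differ between the libraries. By class, wt and GlaKO stood at 12.7 and 5.41 CPM in choroid plexus epithelium and 28.8 and 8.44 CPM in oligodendrocyte precursors. Microglia held 14.5 and 8.50 CPM, T cells 10.9 and 4.23 CPM (8 and 5 UMIs), and astrocytes 11.4 and 9.65 CPM. Oligodendrocytes held 7.70 and 7.09 CPM, and neurons 8.70 and 10.5 CPM. The labels do not say which part of Gla was deleted, so transcripts counted near the 3' end do not check the genotype.

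Most Rab proteins are anchored by lipids attached to cysteines near the carboxyl terminus, and the ends of the coding sequences show how members of different steps differ there. The last 10 codons of 8 members, stop codon included, are given 5' to 3' from the GENCODE M21 transcripts (GRCm38), with the cysteine codons TGC and TGT in capitals.
Rab1a: gtcaagcagtcaggtggaggcTGCTGCtaa
Rab5a: ccagccagaagccagTGTTGTagtaactga
Rab7: aaggcctccgcagaaagcTGCagtTGTtga
Rab3a: gcgccacctcatcaggatTGTgccTGCtga
Rab8a: accagcttcttccggTGCagtctcctgtga
Rab27a: gagaaggagaaggggttgTGTggcTGTtga
Rab32: acaacaaagcccaggtcccagTGCTGCtga
Rab38: gtcagcTGCtctggcTGTgccaaatcctag

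Rab1a and Rab32 end in adjacent cysteine codons just before the stop. Rab7, Rab3a and Rab27a have a pair with 1 codon between them. Rab8a has a single one. Rab38 differs from its close relative Rab32: its last cysteine codon is followed by 3 other codons before the stop. In the family as a whole, 42 of the 51 members had at least 2 cysteine codons within the last 5 codons before the stop and 9 had 1, among them Rab38, Rab8a, Rab8b and Rab18.

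Across cell classes, the early and recycling endosome Rabs held the most evenly spread members, and 7 members of several steps led the next class by at least 2-fold in both libraries. Of the 51 members, 47 had at least 100 UMIs in each library over the 7 classes. For 40 of these 47 (85.1%) the highest class was the same in both libraries, beside 82.4% of all 12089 genes with as many UMIs. The shared highest class was neurons for 11 members, oligodendrocytes for 11, oligodendrocyte precursors for 5, choroid plexus epithelium for 4, microglia for 4, astrocytes for 3 and T cells for 2. As shares of the 47, neurons and oligodendrocytes each came to 23.4%, beside 20.9% and 8.83% of all genes. The other classes came, in that order, to 10.6%, 8.51%, 8.51%, 6.38% and 4.26%. The shares of all genes there were 13.5%, 13.5%, 9.64%, 10.3% and 5.74%. The remaining 7 of the 47 (Rab29, Rab36, Rab20, Rab5c, Rab24, Rab11b and Rab1b) changed their highest class between libraries. In these the highest and the next class were at most 1.36-fold apart in both. Some shared leads were as close, such as those of Rab21 (1.01-fold and 1.07-fold) and Rab2b (1.01-fold and 1.03-fold). In 16 of the 47 members (34%) the highest class was at most 4 times the lowest in both libraries, beside 20.1% of all genes. Those 16 comprised 10 of the 14 early and recycling endosome Rabs, 2 of 4 late endosome and lysosome Rabs, 3 of 14 endoplasmic reticulum and Golgi Rabs and 1 of 7 secretory Rabs. The 4-fold span was chosen after the levels were seen and taken without allowance for counting error.

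**Figure D1:**
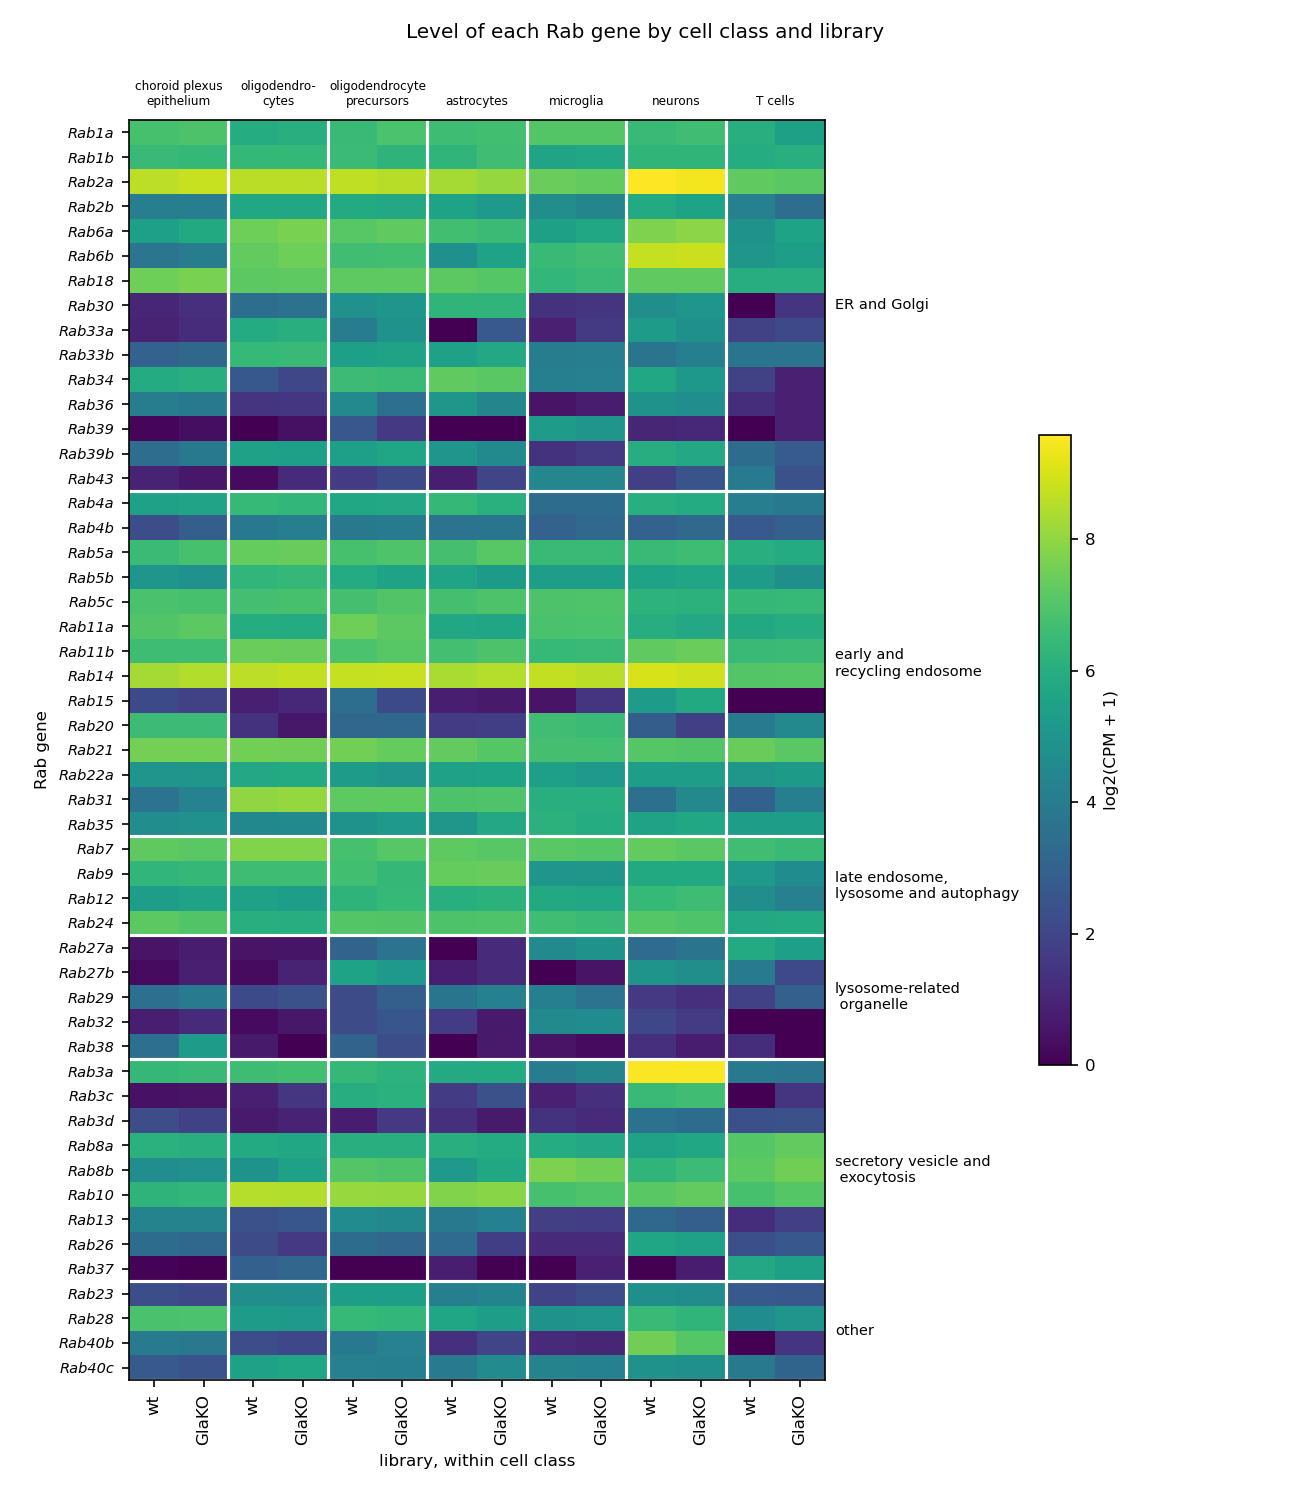
Level of each of the 51 Rab genes (rows, grouped by the membrane step they serve) in the 7 cell classes, with the wt and GlaKO libraries side by side, as log2(CPM + 1) on a colour scale. The paired columns of a class look alike for most genes, and Rab3a and Rab6b stand out in neurons, Rab31 in oligodendrocytes, Rab20 in choroid plexus epithelium and microglia, and Rab37 in T cells.

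Among the endoplasmic reticulum and Golgi Rabs, Rab1a, which acts in transport from the endoplasmic reticulum to the Golgi, was broad. It was highest in microglia, at 130 CPM in both libraries, and lowest in oligodendrocytes in wt (59.8 CPM) and T cells in GlaKO (43.1 CPM). Rab6b, a Golgi Rab known from neurons, reached 432 CPM in wt and 452 CPM in GlaKO neurons. The next class, oligodendrocytes, held 154 and 177 CPM. Rab30 was highest in astrocytes at 75.3 and 77.2 CPM, 2.68-fold and 2.39-fold above oligodendrocyte precursors. Rab39 was highest in microglia at 37.2 and 31.7 CPM, and in astrocytes it had no UMI in either library, where 3 UMIs would have been 2.28 and 1.81 CPM. Rab34 was highest in astrocytes, at 151 and 139 CPM. Rab6b, Rab30 and Rab39 were named because they led in the same class in both libraries, so their agreement is no result. Of the 14 endoplasmic reticulum and Golgi Rabs with at least 100 UMIs in each library, 12 (85.7%) kept their highest class. The share of all genes was 82.4%.

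Of the early and recycling endosome Rabs, which govern entry and sorting of endocytosed cargo, 10 of 14 kept within a 4-fold span. Rab5a ran from 64.1 CPM (T cells) to 159 CPM (oligodendrocytes) in wt, and from 58.4 to 162 CPM between the same classes in GlaKO. Rab5b lay between 32.1 and 78.8 CPM in wt and between 26.2 and 83.5 CPM in GlaKO. Rab5c was still flatter, 1.64-fold from lowest to highest in wt and 1.76-fold in GlaKO. Rab14, which works between endosomes and the Golgi, was highest in neurons (510 and 473 CPM) and lowest in T cells (128 and 133 CPM). Rab11a, the recycling endosome Rab, was highest in oligodendrocyte precursors (176 and 142 CPM), with choroid plexus epithelium at 126 and 142 CPM. In GlaKO these classes stood level, so no order between them can be read. The 4 members beyond that span were Rab31, Rab15, Rab20 and Rab4a. Rab4a was highest in oligodendrocytes (83.9 and 80.7 CPM) and lowest in microglia (9.50 and 9.36 CPM). Rab31 was highest in oligodendrocytes (255 and 270 CPM), Rab15 in neurons (38.4 and 55.2 CPM). Rab20 was shared by microglia (99.6 and 92.5 CPM) and choroid plexus epithelium (94.0 and 95.2 CPM), with 1.62 and 0.554 CPM in oligodendrocytes.

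The late endosome and lysosome Rabs are those nearest to the lysosomal enzyme that GlaKO mice lack. Rab7, which drives late endosomes to fuse with lysosomes, was highest in oligodendrocytes, at 216 and 217 CPM. It was lowest in T cells at 98.2 and 87.1 CPM. Rab9, which returns mannose 6-phosphate receptors from late endosomes to the Golgi, was highest in astrocytes at 159 and 163 CPM and lay at 32.2 and 33.0 CPM in microglia. Rab24, linked to autophagy, ran from 54.6 CPM in T cells to 142 CPM in choroid plexus epithelium in wt, and from 57.5 to 126 CPM (oligodendrocyte precursors) in GlaKO. Rab12 was highest in neurons at 84.4 and 97.4 CPM.

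The Rabs of lysosome-related organelles were sparse, and 4 of the 5 led in different classes. Rab27a, which docks lytic granules and melanosomes at the cell surface, was highest in T cells at 57.3 and 41.4 CPM, with microglia next at 23.1 and 28.9 CPM. Rab27b was highest in oligodendrocyte precursors, at 46.1 and 35.2 CPM. Rab32 was highest in microglia at 22.3 and 24.0 CPM, 6.19-fold and 4.84-fold above oligodendrocyte precursors at 3.60 and 4.96 CPM, although with 83 UMIs in the smaller library it fell below the minimum for the counts above. Rab38 was highest in choroid plexus epithelium in both libraries, at 10.3 and 37.3 CPM. Oligodendrocyte precursors came next at 7.20 and 3.97 CPM. The lead was 9.41-fold in GlaKO but only 1.44-fold in wt, over few precursor UMIs, so the order of these classes in wt is uncertain. By these levels the close relatives Rab32 and Rab38 led in different classes, and Rab32 had only 14 and 9 UMIs in choroid plexus epithelium.

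Of the secretory Rabs, Rab3a, which acts on synaptic vesicles before fusion, reached 733 CPM in wt and 747 CPM in GlaKO neurons. That was 7.68-fold and 7.39-fold above oligodendrocytes, the next class. Rab26, also linked to synaptic and secretory vesicles, was highest in neurons at 50.6 and 44.0 CPM, and so was Rab3c, at 88.5 and 99.6 CPM. Rab37 was highest in T cells at 54.6 and 42.3 CPM and had at most 1 UMI in choroid plexus epithelium in either library. Rab10, which carries vesicles to the plasma membrane, was highest in oligodendrocytes at 368 and 359 CPM. Rab8a, a Rab of exocytosis and cilium formation, was highest in T cells at 132 and 154 CPM, and its relative Rab8b in microglia at 204 and 182 CPM. Rab40b, grouped with the remaining members, was also a neuron gene, at 179 and 133 CPM against 14.9 CPM or less in every other wt class.

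A leading class at least 2-fold above the next in both libraries was found for 7 of the 47 members (14.9%), beside 27.1% of all genes. These were Rab3a, Rab6b, Rab15, Rab26 and Rab40b in neurons, Rab30 in astrocytes and Rab39 in microglia. Rab32, Rab37 and Rab3d met the same fold with fewer than 100 UMIs in a library.

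Between genotypes, the family as a whole stayed close to the other genes of each class. In choroid plexus epithelium, 39 of the 51 members had at least 100 UMIs over both libraries, the minimum for a ratio. The GlaKO over wt log2 ratio had a median of 0.10 over these 39, beside 0.06 over all 9437 genes, and ranged from -0.28 to 1.85. By sign 28 were higher and 11 lower, where 61.3% and 38.7% of all genes were. Past 1.5-fold, 3 members (Rab38, Rab4b and Rab31) were higher and 0 lower, beside 4.99% and 2.63% of all genes.

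In oligodendrocytes the median over 35 members was 0.05, beside 0.03, with 23 higher and 12 lower, beside 56.4% and 43.6% of all genes. There only Rab8b passed 1.5-fold, upward, beside 1.65% of all genes, with 0 lower beside 1.21%. In astrocytes the median over 30 members was 0.03, beside -0.01, with 18 higher and 12 lower, beside 48.6% and 51.4%. Here Rab35 and Rab6b passed 1.5-fold upward, beside 2.33%, and 0 lower, beside 1.22%. In neurons the median over 38 members was -0.05, beside -0.0046, with 15 higher and 23 lower, beside 48.9% and 51.1%. Among neurons Rab34 alone passed 1.5-fold, downward, beside 1.53% of all genes, and 0 passed it upward, beside 2.32%. In oligodendrocyte precursors (34 members, median 0.01), microglia (34 members, median 0.01) and T cells (14 members, median 0.06) no member passed 1.5-fold in the class sum. Single clusters could differ from their class. Rab11a stood at -0.67 (-1.17 to -0.18, from 85 and 60 UMIs) in precursor cluster 6 and at -0.26 (-0.56 to 0.04) in cluster 12. Rab14 stood there at -0.58 (-0.90 to -0.27) and 0.12 (-0.06 to 0.30). By sign, 18 were higher and 16 lower in oligodendrocyte precursors, beside 50.8% and 49.2% of all genes. In microglia 18 were higher and 16 lower, beside 46.1% and 53.9%, and in T cells 10 and 4, beside 58.8% and 41.2%. The shares of all genes past 1.5-fold in these 3 classes were 2.14%, 2.26% and 6.13% upward and 1.3%, 1.46% and 1.59% downward.

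**Figure D2:**
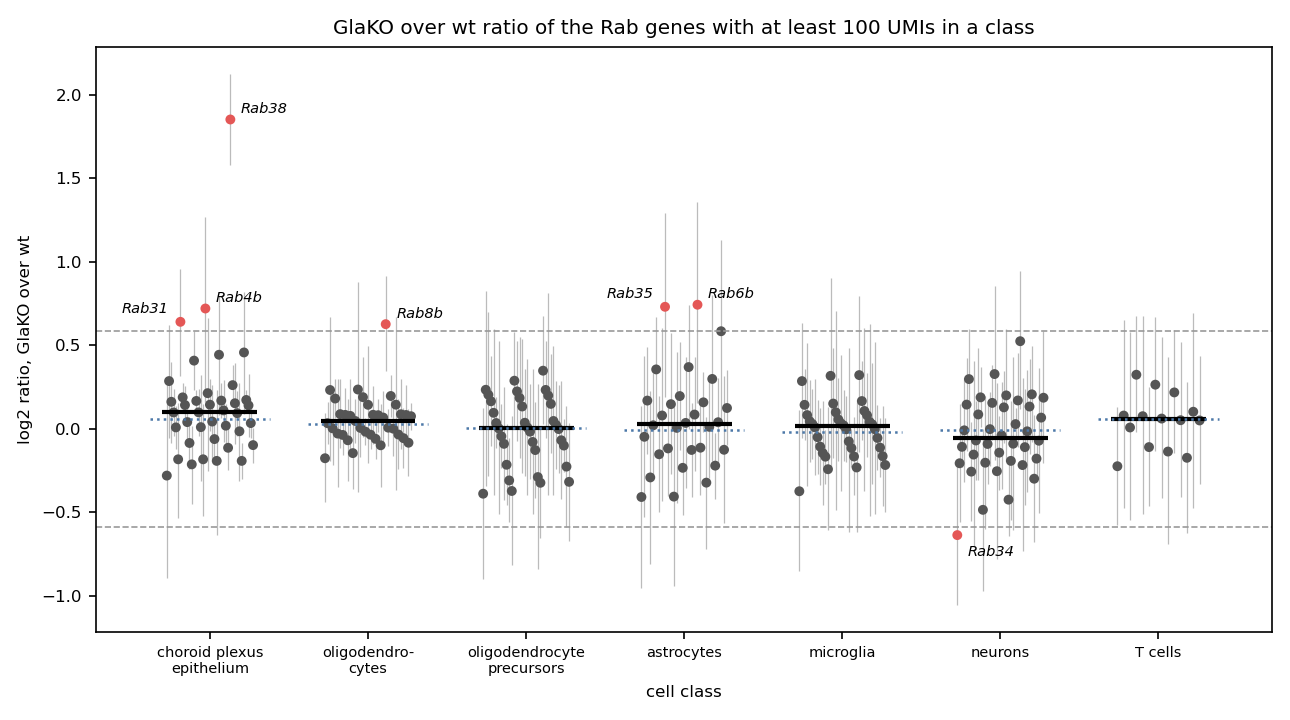
GlaKO over wt log2 ratio (vertical axis) of each Rab gene with at least 100 UMIs in a cell class (horizontal axis), with exact 95% intervals for counting error as grey lines. Black bars are the median of the Rab genes, dotted blue bars that of all genes of the class, dashed lines 1.5-fold, and red points the 7 gene and class pairs past it. Rab38 in choroid plexus epithelium lies apart at 1.85, and the other red points lie between 0.63 and 0.74 or, for Rab34, at -0.64.

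By step, the ratios in choroid plexus epithelium were as follows. For all genes of the class the median log2 ratio was 0.06, and 61.3% were above 0. The 11 endoplasmic reticulum and Golgi Rabs with enough UMIs had a median log2 ratio of 0.17, 9 of them above 0, led by Rab39b (0.46) and Rab6a (0.41). The 13 early and recycling endosome Rabs had a median of 0.11, with 11 above 0, and included Rab4b (0.72) and Rab31 (0.64). Rab5a stood at 0.26 (0.14 to 0.38), Rab5b at -0.21 (-0.45 to 0.02) and Rab5c at -0.06 (-0.18 to 0.06). The 4 late endosome and lysosome Rabs had a median of 0.00, with Rab7 at -0.10 (-0.20 to 0.01) and Rab9 at 0.10 (-0.04 to 0.24). The intervals of both included 0 and kept well inside 1.5-fold. The 6 secretory Rabs had a median of 0.04, with Rab3a at 0.09, Rab10 at 0.10 and Rab8a at -0.08. Of the 5 lysosome-related organelle Rabs only Rab29 (0.44) and Rab38 had enough UMIs there.

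Rab38 was the member with the largest difference. The gene lies on the plus strand of chromosome 7 (GRCm38, 88430273 to 88491572) in 3 exons. Its 3' untranslated region (88490761 to 88491572), where this assay counts, lies in exon 3. No other annotated gene covers the last base of Rab38, while Gm15661 overlaps the gene on the other strand. In choroid plexus epithelium Rab38 had 189 UMIs in wt and 276 in GlaKO, although GlaKO had fewer cells of the class (800 against 2609). Its level was 10.3 CPM (95% Poisson interval 8.92 to 11.9) in wt and 37.3 CPM (33.1 to 42.0) in GlaKO. The ratio was 3.61-fold, or 1.85 on the log2 scale (1.58 to 2.13), and 11 of the 9437 genes of the class had a higher ratio. At least 1 Rab38 UMI was found in 6.32% of wt cells (Clopper-Pearson interval 5.42 to 7.33%) and in 27.0% of GlaKO cells (24.0 to 30.2%). In microglia the shares were 0.226% and 0.139% at median depths of 5368 and 6436 UMIs. They rested on 1 UMI in wt (cluster 10) and 1 UMI in GlaKO (cluster 4).

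Outside choroid plexus epithelium, Rab38 came to 10 and 8 UMIs in oligodendrocyte precursors (7.20 and 3.97 CPM) and to 0 to 3 UMIs per library in each other class. A ratio could therefore be formed only in choroid plexus epithelium, and whether it differs between classes was not tested.

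The higher Rab38 level was spread over cells and clusters. No cell held more than 4 Rab38 UMIs in wt or 6 in GlaKO, about 2.12% and 2.17% of the UMIs of the gene. Choroid plexus epithelium comprised 3 large clusters. In cluster 2, led by Igfbp2, Lbp and Folr1, Rab38 went from 6.65 CPM in wt to 22.3 CPM in GlaKO (log2 ratio 1.75, 1.00 to 2.49). In cluster 3, led by Calml4, Clic6 and Kcne2 among others, it was 8.04 and 38.9 CPM (2.27, 1.82 to 2.74). In cluster 5, which has little mitochondrial RNA and none of the fixed markers among its 10 leading genes, it was 17.0 and 43.3 CPM (1.35, 0.94 to 1.76). A small cluster of 16 and 3 cells held 1 UMI in each library. GlaKO was above wt in all 3 large clusters, with intervals that did not reach 0.

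Depth and mitochondrial share moved with the genotype in this class: the median share of mitochondrial UMIs was 2.46% in wt and 1.2% in GlaKO, beside the depths given above. The part of the mitochondrial share in the Rab38 difference was not tested. The ratio was also measured within parts of like depth. With all choroid plexus cells divided into 5 parts of rising UMI depth, the log2 ratio was 1.63, 0.78, 1.91, 1.99 and 2.05 from the shallowest to the deepest. Only the interval of part 2, with 9 GlaKO UMIs, included 0 (-0.47 to 1.86). With every cell thinned to 1000 UMIs, the level was 14.2 CPM (37 UMIs) in wt and 37.5 CPM (30 UMIs) in GlaKO. The thinned log2 ratio was 1.40, and 1.38% of wt and 3.38% of GlaKO cells kept a UMI.

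**Figure D3:**
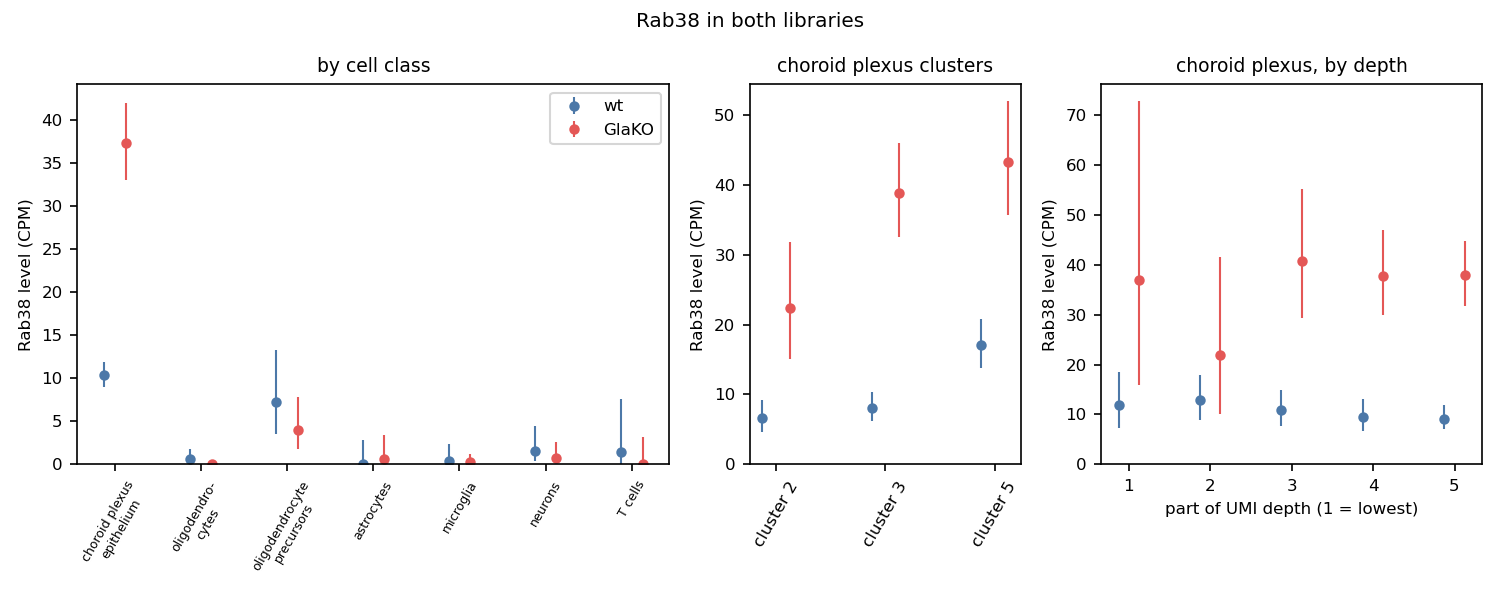
Rab38 level (CPM, vertical axes) in wt (blue) and GlaKO (red) with exact 95% Poisson intervals: by cell class, in the 3 large choroid plexus clusters, and in choroid plexus cells in 5 parts of UMI depth. GlaKO lies above wt at 37.3 against 10.3 CPM in choroid plexus epithelium and in each cluster and part, with overlapping intervals in the 2 shallowest parts, while all other classes lie at or below 7.20 CPM.

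Rab4b and Rab31 were the other members past 1.5-fold in choroid plexus epithelium. Rab4b acts in fast recycling from early endosomes (chromosome 7, minus strand, 27168424 to 27178896, overlapped on its own strand by Gm21983 and Mir3101). It had 72 UMIs in wt and 48 in GlaKO, or 3.94 and 6.49 CPM (log2 ratio 0.72, 0.16 to 1.27). The difference lay in cluster 3 (1.42), with 0.17 in cluster 2 and -0.07 in cluster 5. Thinned to 1000 UMIs it was 13 and 4 UMIs, a log2 ratio of 0.00, near the level of single UMIs.

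Rab31, a Rab5 relative of the endosome and Golgi (chromosome 17, minus strand, 65651729 to 65772752), had 214 and 135 UMIs there, or 11.7 and 18.3 CPM (0.64, 0.32 to 0.96). That was 4.60% of its oligodendrocyte level in wt and 6.77% in GlaKO. The 11 oligodendrocyte markers, summed, moved the same way in choroid plexus epithelium, from 326 to 575 CPM, or from 0.498% to 0.933% of their level in oligodendrocytes, and none of them was at 0 in either library. The part of oligodendrocyte RNA in the Rab31 difference was not tested. Thinned, its log2 ratio was 0.05, and under another scaling (TMM) it was 0.56, below 1.5-fold.

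In oligodendrocytes, Rab8b (chromosome 9, minus strand, 66843664 to 66919687) had 140 UMIs in wt and 395 in GlaKO, or 28.4 and 43.8 CPM (0.63, 0.34 to 0.92). All 3 oligodendrocyte clusters pointed the same way, with log2 ratios of 0.67, 0.60 and 0.46. With the clusters, or parts of depth, given equal weight it was 0.57 or 0.52, below 1.5-fold. Rab8b is highest in microglia, and its oligodendrocyte level was 13.9% of the microglial level in wt and 24.0% in GlaKO. The 12 microglia markers in oligodendrocytes came to 187 CPM in wt and 236 CPM in GlaKO. That was 0.449% and 0.582% of their level in microglia. In microglia themselves Rab8b was lower in GlaKO, at -0.17 (-0.33 to -0.0038). In astrocytes it was higher, at 0.58 (0.05 to 1.13) from 46 and 87 UMIs, just short of 1.5-fold. T cells stood at 0.32 (-0.02 to 0.68). Oligodendrocyte precursor clusters 6 and 12 stood at -0.44 and 0.13, and neuron clusters 8, 11 and 16 at -0.34, 0.42 and -0.15. The part of microglial RNA in the oligodendrocyte difference was not tested.

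In astrocytes, Rab35 (chromosome 5, plus strand, 115631908 to 115647736), which acts in fast endocytic recycling, had 43 and 90 UMIs, or 32.7 and 54.3 CPM (0.73, 0.19 to 1.29). That was 46.3% of its microglial level in wt and 89.2% in GlaKO. The microglia markers there came to 263 and 409 CPM, or 0.634% and 1.01% of their level in microglia. Thinned to 1000 UMIs, the log2 ratio of Rab35 was 0.32. Rab6b (chromosome 9, plus strand, 103111787 to 103185276) had 36 and 76 UMIs, or 27.4 and 45.8 CPM (0.74, 0.15 to 1.36). That was 6.34% and 10.1% of its neuronal level. The neuron markers in astrocytes came to 63.9 and 94.7 CPM, or 1.14% and 1.41% of their level in neurons. For both Rabs, the summed markers of the class in which each is highest were also higher in GlaKO. The part of RNA from those classes was not tested.

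In neurons, Rab34 (chromosome 11, plus strand, 78188430 to 78192193), a Golgi and cilium Rab, had 103 UMIs in wt and 94 in GlaKO, or 52.7 and 33.9 CPM (-0.64, -1.05 to -0.22). It was the only member with at least 100 UMIs that was lower by 1.5-fold in any class. Over the 3 neuron clusters, Rab34 stood at -1.01 (-2.59 to 0.46) in cluster 8, -0.73 (-1.22 to -0.24) in cluster 11 and 0.40 (-0.87 to 1.87) in cluster 16. Only the interval of cluster 11 did not include 0. Cluster 16 made up 44 of 393 wt neurons and 94 of 433 GlaKO neurons. With the clusters given equal weight the ratio was -0.50, and with equal weight over 5 parts of UMI depth -0.52, short of 1.5-fold. Astrocytes are the class richest in Rab34, and its neuronal level was 34.8% of theirs in wt and 24.5% in GlaKO. The astrocyte markers in neurons came to 371 and 505 CPM, or 1.35% and 1.79% of their level in astrocytes. The part of astrocyte RNA in the Rab34 difference was not tested. Of the neuron-led members, Rab40b was lower at -0.42 (-0.64 to -0.21), Rab15 higher at 0.52 (0.12 to 0.94) in the class sum, and Rab3a (0.03) and Rab6b (0.07) lay near 0. Within clusters 8, 11 and 16 Rab15 stood at -0.23, 0.31 (-0.22 to 0.85) and 0.35 (-0.34 to 1.10), and each interval included 0. Rab40b stood there at 1.77 (-0.55 to 5.05, from 2 and 8 UMIs), -0.33 (-0.55 to -0.11) and -0.26 (-1.30 to 0.87). It was highest in cluster 11, at 235 and 187 CPM. That cluster made up 283 of 393 wt and 278 of 433 GlaKO neurons.

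The proteins that load, switch and use the Rabs were followed in choroid plexus epithelium through 5 gene lists. Over all genes of this class 61.3% were higher and 38.7% lower, the median was 0.06, and 4.99% and 2.63% passed 1.5-fold upward and downward. Of the Rab prenylation and extraction genes, 8 of 9 listed had enough UMIs. Their median log2 ratio was 0.11 with 7 higher and 1 lower, and 0 passed 1.5-fold. Gdi2, a GDP dissociation inhibitor, stood at 0.09 (0.01 to 0.17). Among 29 of 36 exchange factors 19 were higher and 10 lower (median 0.04), and 0 passed 1.5-fold.

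Among 31 of 40 GTPase-activating proteins, 18 were higher and 13 lower (median 0.05), with 2 past 1.5-fold upward and 1 downward. Tbc1d1, a regulator of the Rabs that deliver glucose transporters, had 248 UMIs in wt and 306 in GlaKO, or 13.6 and 41.4 CPM (1.61, 1.36 to 1.86). Evi5l was also higher, at 0.61 (0.06 to 1.16) with 76 and 47 UMIs, and Tbc1d31 lower, at -0.82 (-1.43 to -0.25) with 135 and 31 UMIs. Of 42 of 49 effectors 28 were higher and 14 lower (median 0.08), with 1 past 1.5-fold upward and 0 downward. This was Golga4, a golgin of the trans-Golgi network, at 24.3 and 37.7 CPM (0.64, 0.42 to 0.86).

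**Figure D4:**
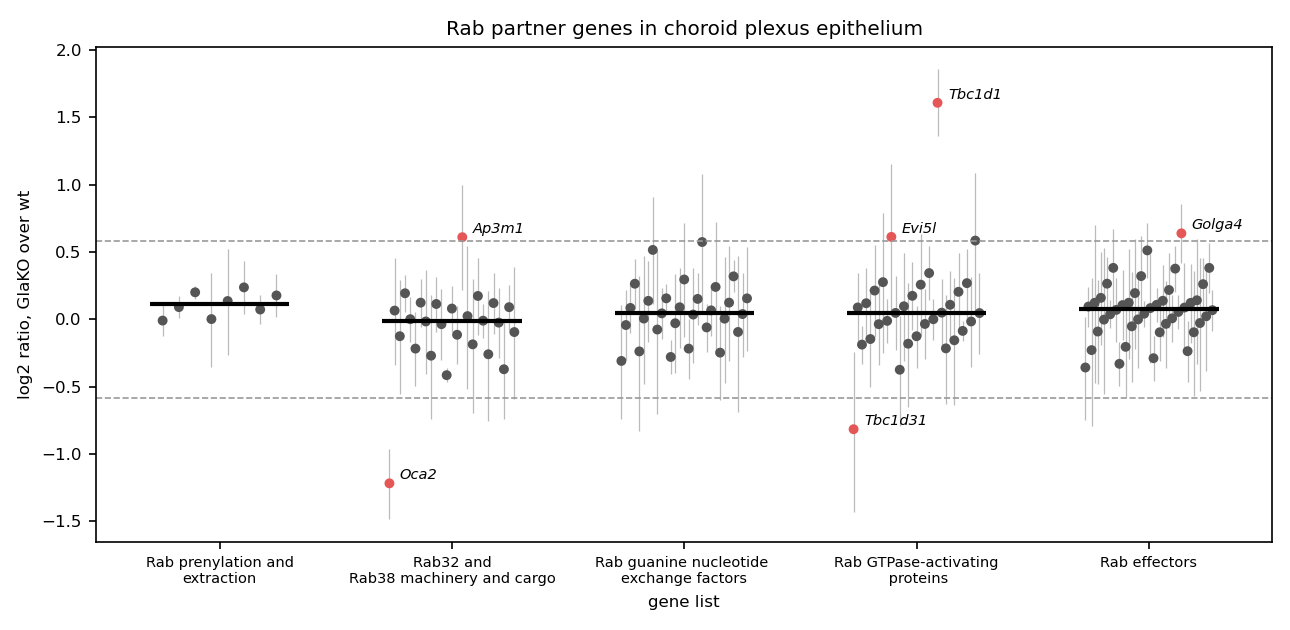
GlaKO over wt log2 ratio (vertical axis) in choroid plexus epithelium of genes with at least 100 UMIs in 5 lists of Rab partner genes (horizontal axis), with exact 95% counting intervals as grey lines, medians as black bars and 1.5-fold as dashed lines. Tbc1d1 at 1.61 and Oca2 at -1.22 lie farthest from 0, and the list medians lie between -0.02 and 0.11.

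Of the machinery and cargo of Rab32 and Rab38, 25 of 28 listed genes had enough UMIs. Of these 11 were higher and 14 lower, and the median was -0.02, beside 0.06 over all genes. Past 1.5-fold 1 was higher and 1 lower. Hps1 and Hps4, which together form the exchange factor for Rab32 and Rab38, stood at -0.26 (-0.75 to 0.21) and 0.06 (-0.34 to 0.46). Ankrd27, an effector of both Rabs, had 40 and 21 UMIs, too few for a ratio. Ap3m1, a subunit of the AP-3 adaptor, was higher at 0.61 (0.22 to 0.99). Oca2, a melanosomal membrane protein, was lower, with 823 and 143 UMIs, or 45.1 and 19.3 CPM (-1.22, -1.49 to -0.96). Summed over the class, Rab38 and Oca2 thus differed between the libraries in opposite directions. Of the 6 melanocyte markers only Dct was listed for both libraries, at 7.39 and 6.49 CPM in choroid plexus epithelium (-0.19, -0.69 to 0.30). Dct was higher in oligodendrocyte precursors, at 29.5 and 41.2 CPM, so its level here is no measure of melanocytes. Mitf stood at 0.00 (-0.17 to 0.17) in choroid plexus epithelium.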

How the data were processed

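Single-cell libraries (Chromium 3' v3.1) were demultiplexed with Cell Ranger 4.0, per the labels' protocols. The submitters' processing notes name the mm10 build, Seurat 4, R 4.1.3 and Cell Ranger 6.0.1. The deposited matrices hold raw UMI counts per gene and barcode, and the strand setting of the counting is not given in the sources used here. Barcodes scored as doublets (25 in wt, 70 in GlaKO) were removed. The caller marked 0.459% of wt barcodes, under 0.5%, so it cannot be said to have worked there, and 5418 and 4502 cells remained. Counts were scaled to 10000 per cell, and cells were clustered with scanpy 1.11.5 (2000 variable genes, 30 components, 15 neighbours, Leiden resolution 1.0) without mitochondrial, ribosomal, immediate-early, heat-shock, haemoglobin, sex-linked and Rab genes. Clusters were named from at least 3 markers of a fixed list, and 5230 wt and 4379 GlaKO cells fell into the 7 classes.

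UMIs were summed per class and library, and ratios given an exact conditional 95% interval where the sum over both libraries reached 100. No test was made, since each genotype is 1 library. The ratio code was tested on simulated data. The named genes are Rab genes past 1.5-fold, Rab genes at least 2-fold above the next class in both libraries, representatives of each step and of the lists, and list members past 1.5-fold in choroid plexus epithelium. 1 gene that this rule names whatever its value is not reported here. Other names, and the 4-fold span used for evenness, were chosen after the values were seen. The members and lists were chosen with earlier results of these data known. The 13 alternatives included TMM scaling (edgeR 4.0.16).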

Additional observations from a re-analysis of the deposited data

Results flagged for a closer look

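3 Rab genes outside the 51 were listed for 1 library only, so no comparison used them. Rab42 had 89 UMIs in 85 cells of the wt library, 69 of these UMIs in choroid plexus epithelium (3.78 CPM). Its highest level was in oligodendrocyte precursors, at 5.04 CPM from 7 UMIs. Rab9b, a relative of Rab9, had 93 UMIs in 84 cells of the GlaKO library and was highest in neurons at 17.3 CPM (48 UMIs). Rab3b, a relative of Rab3a, had 96 UMIs in 73 cells of the GlaKO library, also highest in neurons with 36 of these UMIs. All of these counts lie above the 3 UMIs that a count of 0 allows. The lists of the libraries differ by 264 genes present only for wt and 410 only for GlaKO, so a gene missing from 1 list gives no level there.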

How the results depend on the processing

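Over the 13 alternatives the Rab38 log2 ratio in choroid plexus epithelium ran from 1.40 (thinned to 1000 UMIs) to 2.01 (no doublets removed), past 1.5-fold in each, although a minimum of 500 UMIs leaves Rab38, with fewer UMIs, uncounted. The count of members with the same highest class in both libraries ran from 30 (thinned) to 41, and no ratio past 1.5-fold changed sign. TMM scaling lowered the median of all genes in choroid plexus epithelium from 0.06 to -0.02. Counts of members past 1.5-fold moved most under thinning, which leaves few UMIs a gene: 1 lower in choroid plexus epithelium, 2 higher and 1 lower in oligodendrocyte precursors, 3 lower in astrocytes, 3 higher and 2 lower in microglia, 5 higher and 4 lower in neurons, and 2 higher and 1 lower in T cells. Equal weight over 5 parts of depth gave 5 higher in choroid plexus epithelium, 0 higher in oligodendrocytes, 1 lower in oligodendrocyte precursors, 1 lower in astrocytes, 1 higher in microglia and 0 lower in neurons. A minimum of 20 UMIs, which tests more genes, gave 1 lower in choroid plexus epithelium, 2 higher and 2 lower in oligodendrocytes, 2 higher and 2 lower in oligodendrocyte precursors, 1 lower in astrocytes, 1 higher in neurons, and 2 higher and 2 lower in T cells. A minimum of 500, which tests fewer, gave 0 higher in choroid plexus epithelium, 0 higher in astrocytes and 0 lower in neurons, and left no T cell median. Each library clustered alone gave 1 higher in neurons. Equal weight over clusters gave 0 higher in oligodendrocytes, 5 higher and 1 lower in microglia, and 2 lower in neurons. For the moves under depth weighting and under other clusterings the cause was not tested. No paired analysis was possible because each genotype is 1 library.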
